A study of Mus musculus with 6 samples.

Results

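Chemokines are small secreted proteins that direct the movement of leukocytes, and their receptors are G protein-coupled receptors on the cells that follow them. The genes described here are the CC and CXC chemokines and their receptors on a mouse whole-transcript array: every gene whose symbol is Ccl, Cxcl, Ccr or Cxcr followed by a digit, other than genes not reported here. Only transcript clusters, the array's units of probes, that carry a single gene symbol were taken, and the brightest cluster over all arrays stood for a gene that had several. This gave 46 of 19938 genes, namely 19 CC ligands, 13 CXC ligands, 10 CC receptors and 4 CXC receptors.

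Mice of the C57BL/6J strain had received either ETX or the vehicle, phosphate-buffered saline (PBS), for 1 week, and their hearts were collected at postnatal day 14. The labels do not spell out ETX, and they call the hearts biological replicates. Total RNA of 3 ETX hearts (replicates 6, 7 and 10) and 3 PBS hearts (replicates 3, 9 and 12) was hybridised to 1 Affymetrix array each. The values are log2 signals, so a difference of 1 is a 2-fold change in signal.

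CC chemokines carry adjacent cysteines near the start of the mature protein and CXC chemokines have a single residue between them. Many ligands are induced by inflammatory cytokines and draw monocytes, neutrophils or lymphocytes, whereas others, such as Cxcl12, are made constantly by stromal and endothelial cells. Ligands bind heparan sulfate on endothelium, and atypical receptors remove them without signalling through G proteins. In heart, resident macrophages, fibroblasts and endothelial cells are known sources of ligands.

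All 7 cardiomyocyte markers were bright, with a mean log2 signal between 12.1 and 12.2 in every heart. PBS 3 and PBS 9 stood apart from the other 4 hearts because they carried transcripts of lung epithelium. Sftpc, the surfactant protein of alveolar cells, had 3.31, 3.25 and 3.10 in ETX 6, 7 and 10, against 8.12, 8.58 and 3.59 in PBS 3, 9 and 12. The summed signal of 11 lung markers was 177 to 183 in ETX hearts, against 1114, 2544 and 158 in PBS 3, 9 and 12. Of the 11 lung markers 8 were at least 1 log2 unit higher in each of PBS 3 and PBS 9 than in PBS 12. PBS 12, the only PBS heart without raised lung transcripts, is therefore set beside the group means below. Atrial transcripts were also uneven. The mean log2 signal of 5 atrial myocyte markers was 8.47, 8.59 and 6.84 in ETX 6, 7 and 10, against 8.37, 6.17 and 6.30 in PBS 3, 9 and 12. Nppa, 1 of the 5, had 12.12, 12.48 and 11.89 in ETX hearts, against 12.05, 9.28 and 9.04 in PBS hearts. In ETX 10 Myl7, Myl4, Sln and Mybphl (6.24, 7.57, 3.68 and 4.83) lay near PBS 12 (6.22, 7.74, 3.63 and 4.84). The score of ETX 10 thus exceeded that of PBS 12 through Nppa. Whether Nppa followed atrial tissue was not tested. The means of the lung and of the atrial markers are the scores used as covariates below. The groups were compared with limma over the 14953 genes whose mean signal reached 3.45, the lower quartile of gene means, with p-values adjusted over all of them by the Benjamini-Hochberg method and a threshold of 0.05.

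The promoters of Cxcl9 and Cxcl10 are shown because Cxcl9 was the only one of the 46 genes past the threshold, while Cxcl10, its neighbour and fellow ligand of the receptor Cxcr3, was not. Both are the 250 bases before the RefSeq start on the minus strand of mouse chromosome 5 in build GRCm38.p6, Cxcl9 at chr5:92328080-92328329 and Cxcl10 at chr5:92348890-92349139, written 5′ to 3′.
Cxcl9: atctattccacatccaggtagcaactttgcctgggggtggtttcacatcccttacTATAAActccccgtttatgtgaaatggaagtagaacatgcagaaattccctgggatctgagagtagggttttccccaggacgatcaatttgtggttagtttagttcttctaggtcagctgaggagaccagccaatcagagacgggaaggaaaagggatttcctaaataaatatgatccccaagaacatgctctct
Cxcl10: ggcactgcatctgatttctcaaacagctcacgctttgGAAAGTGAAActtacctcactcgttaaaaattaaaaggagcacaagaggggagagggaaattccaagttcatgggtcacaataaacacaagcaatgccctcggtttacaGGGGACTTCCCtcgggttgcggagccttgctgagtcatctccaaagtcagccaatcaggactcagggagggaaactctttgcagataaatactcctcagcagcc
Capitals in the Cxcl9 sequence mark the letters TATAAA, at positions -195 to -190 from the start. Capitals in the Cxcl10 sequence mark GAAANNGAAA, the core letters of the interferon-stimulated response element, at -213 to -204, and a pair of overlapping matches to the kappa-B consensus at -104 to -95 and -103 to -94. The kappa-B consensus was searched as GGGRNYYYCC, where R is A or G, Y is C or T and N is any base. The letters GGGAAATTCC, also in the Cxcl10 sequence, do not match this form and are not marked. A search of both strands of the 300-base windows (250 before and 50 after the start) found 34 windows for 32 of the 46 genes. GAAANNGAAA stood in 3 of these 34 windows (8.82%), those of Ccl19, Cxcl10 and Cxcl14, and in 3.44% of all 32851 windows in the RefSeq table. The kappa-B consensus matched 9 of the 34 windows (26.5%), of Ccl1, Ccl20, Ccl9, Ccr3, Ccr6, Cxcl1, Cxcl10, Cxcl2 and Cxcl3, and 5.81% of all windows. TATAAA stood in 9 windows (26.5%) and in 13.6% of all windows. Matches are descriptions of the letters, and the windows do not cover more distant elements.

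Cxcl9, an interferon-gamma-induced ligand that attracts activated T cells through Cxcr3, was lower in ETX hearts. Its log2 signal was 4.87, 5.23 and 5.34 in ETX 6, 7 and 10, against 6.06, 6.53 and 6.21 in PBS 3, 9 and 12. Every ETX heart lay below every PBS heart, and PBS 12, whose lung transcripts were not raised, lay between the other PBS hearts. The means were 5.15 ± 0.24 in ETX hearts and 6.27 ± 0.24 in PBS hearts (SD, n = 3 each), a difference of -1.12 (95% interval -1.47 to -0.77), or 2.17-fold lower (limma adjusted p = 0.0129). The difference stayed past the threshold in each of 6 fits that left out 1 heart, with limma adjusted p between 0.0221 and 0.0498. Against PBS 12 alone it was -1.07, with a limma adjusted p of 0.0894 in a fit left with that single PBS heart.

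Cxcl9 was thus 1 of the 28 genes at or above the brightness floor (3.57%), where limma called 3.56% of all 14953 genes. For lower calls the share was also 1 of 28, beside a background of 2.43%, and no chemokine or receptor gene was called higher, beside 1.14% of all genes. The share of calls among these genes was therefore near that of the array as a whole. At an unadjusted p under 0.05, limma gave 10 of the 28, 9 lower and 1 higher in ETX, or 35.7% against 21.9% of all genes tested. Of the 28 genes 20 had a difference below 0 and 8 above, with a median of -0.19 (-0.09 over all 46) against -0.006 over all genes tested. With PBS 12 as the only PBS heart the median of the 28 was 0.0090, so the shift of the group median was not seen against that heart. The 28 were 14 CC ligands, 10 CXC ligands, 2 CC receptors and 2 CXC receptors. Cxcl13 and Cxcl15 reached the floor only through PBS hearts, so counts and medians over the 28 are descriptions. The nearest genes to the floor were Cxcl10 and Cxcr3 inside it and Ccr1 just outside.

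**Figure D1:**
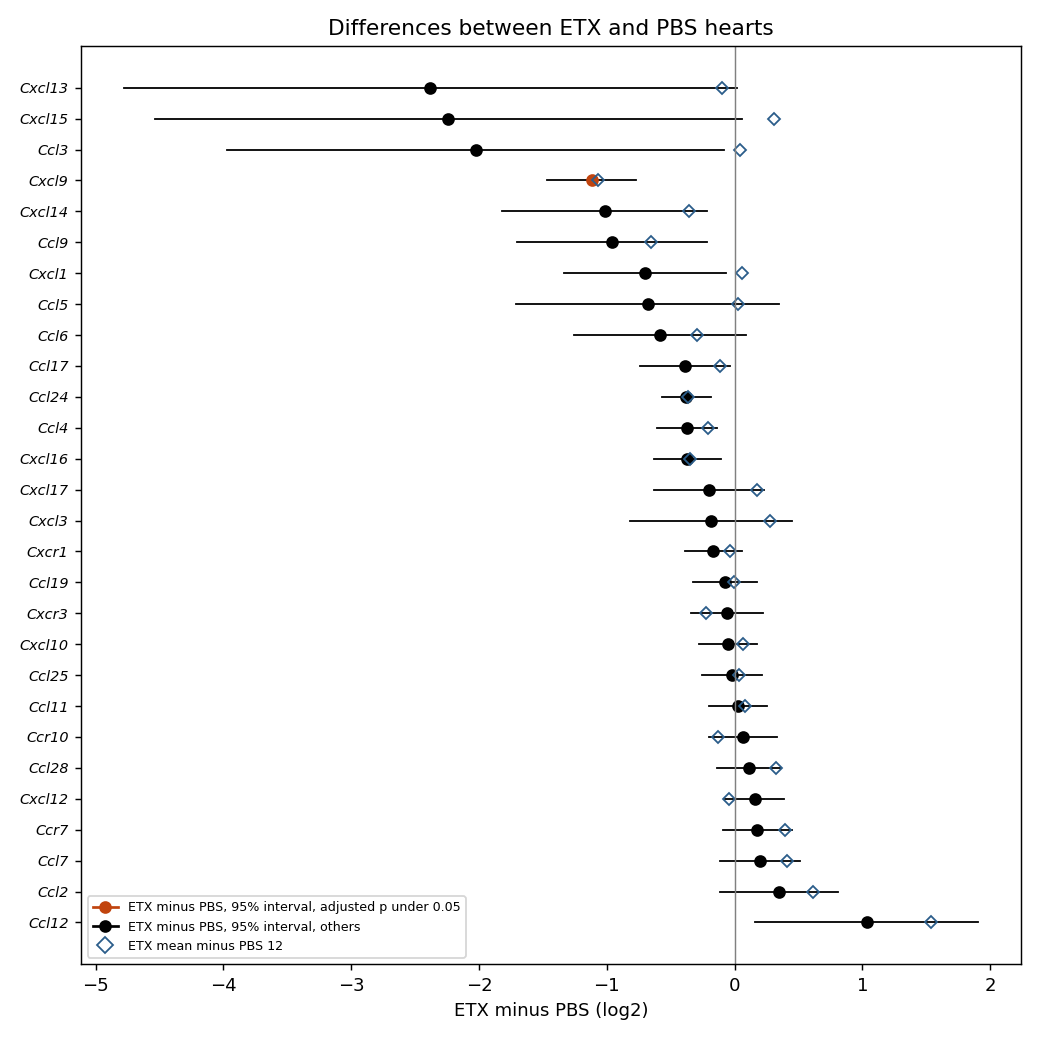
Difference in log2 signal (ETX minus PBS) of the 28 chemokine and receptor genes at or above the brightness floor, with 95% intervals from limma; orange marks the gene past the threshold, and diamonds give the ETX mean minus PBS 12. Cxcl9 is the single orange gene at -1.12, and its diamond lies close to it at -1.07, while the widest intervals belong to Cxcl13, Cxcl15 and Ccl3, whose diamonds lie near 0.

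The other ligands of Cxcr3 and the receptor itself did not pass the threshold. Cxcl10 had 3.33, 3.57 and 3.54 in ETX hearts, against 3.49, 3.70 and 3.41 in PBS hearts, a difference of -0.05 (95% interval -0.28 to 0.18, limma adjusted p = 0.807). Cxcl11, which RefSeq annotates as a transcribed pseudogene in this strain's reference, lay below the floor at 2.95, 3.08 and 3.05 in ETX hearts and 3.11, 3.45 and 2.95 in PBS hearts. The receptor Cxcr3, carried by activated T and natural killer cells, had 3.56, 3.58 and 3.30 in ETX hearts, against 3.29, 3.62 and 3.70 in PBS hearts. The groups overlapped for each of these genes, all of which lay near or below the floor, where array signals are compressed.

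Genes of interferon-gamma signalling, the inducer of Cxcl9, gave no call. Of 16 tested, 13 had a difference below 0, with a median of -0.11. The 2 with the smallest p were the receptor chains Ifngr1 at -0.23 (limma adjusted p = 0.200) and Ifngr2 at -0.14 (limma adjusted p = 0.219). Of 10 markers of T and natural killer cells, the cells that Cxcl9 draws, 6 lay below the floor. Cd3e lay above it, with 4.53 to 4.63 in ETX hearts and 4.49 to 5.14 in PBS hearts. None was called, and Prf1 (0.15) and Cd3e (-0.20) had the smallest p. The summed signal of the 10 was 109 to 116 in ETX hearts and 107 to 128 in PBS hearts. Cd4, listed with thymocytes and also carried by helper T cells and some macrophages, fell by 0.44 on the log2 scale (limma adjusted p = 0.0468), a call kept in 1 of the 6 fits that left out a heart, without PBS 9. Of 12 macrophage markers measured, 5 fell (Csf1r, Adgre1, C1qa, C1qb and C1qc), beside 2.43% of all genes tested. All 12 were below 0, with a median of -0.49, but Fcgr1, Mertk and Cd163 were close to it (-0.06, -0.06 and -0.07). Csf1r (-0.76) and C1qc (-0.57) passed the threshold in each of the 6 fits that left out a heart, C1qa and C1qb in 2 of them and Adgre1 in 0. The summed signal of the 12 markers was 1271 to 1328 in ETX hearts and 1868 to 2515 in PBS hearts, with PBS 12 at 1868. Lyz2 weighs heavily in this sum and was highest in the hearts with lung transcripts. It had 7.81, 7.97 and 7.75 in ETX hearts, against 9.08, 9.92 and 8.40 in PBS 3, 9 and 12. The part of macrophage content in the Cxcl9 difference was not tested, and in whole-heart RNA fewer cells of a type and less RNA per cell cannot be told apart.

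**Figure D2:**
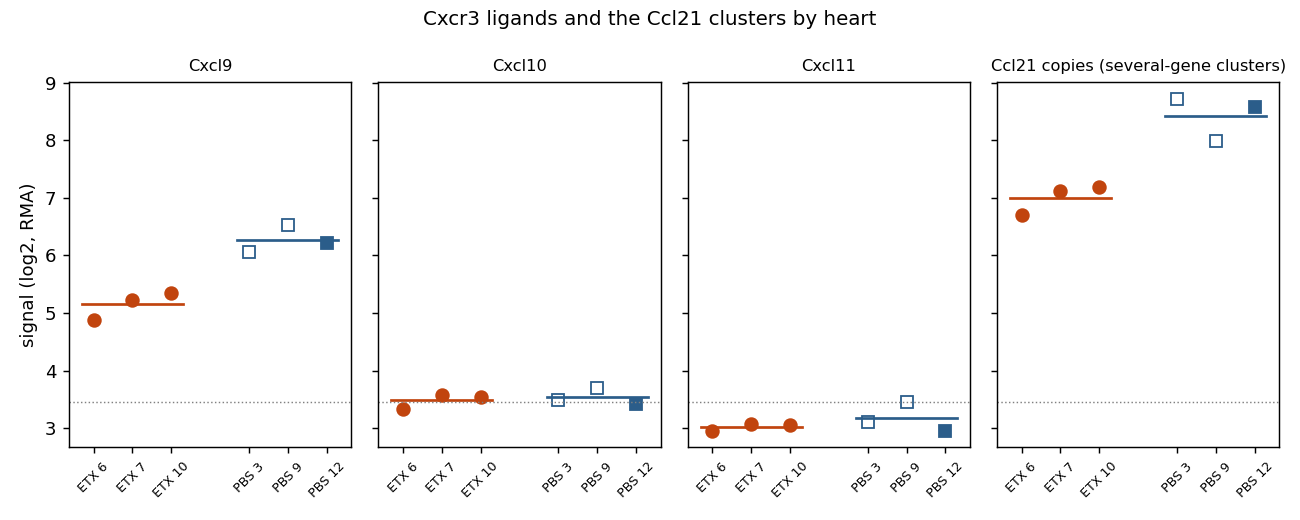
Log2 signal in each heart of the Cxcr3 ligands Cxcl9, Cxcl10 and Cxcl11 and of the shared Ccl21 clusters, with lines at the group means, a dotted line at the floor of 3.45, ETX hearts as orange circles and PBS hearts as blue squares (open for PBS 3 and 9, filled for PBS 12). ETX hearts lie below all PBS hearts for Cxcl9 (4.87 to 5.34 against 6.06 to 6.53) and for Ccl21 (6.69 to 7.19 against 7.99 to 8.72), and overlap them for Cxcl10 and Cxcl11.

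Apart from Cxcl9, 6 more ligands had every ETX heart below every PBS heart without passing the threshold: Ccl24, Ccl4, Cxcl16, Ccl9, Cxcl14 and Ccl17. With Cxcl9 they were 7 of 28 (25%), where 16.1% of all genes tested showed such separation. Ccl24, an eosinophil attractant that acts through Ccr3, had 4.04, 4.19 and 4.33 in ETX hearts, against 4.55, 4.60 and 4.55 in PBS hearts. The PBS hearts were nearly equal, including PBS 12. The difference was -0.38 (95% interval -0.57 to -0.19), 1.30-fold, with a limma adjusted p of 0.0516. It passed the threshold in 4 alternative settings of the fit, at an adjusted p between 0.0416 and 0.0484, and in none of the 6 fits that left out a heart.

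Cxcl16, made as a membrane-bound ligand of Cxcr6, had 5.68, 5.83 and 5.77 in ETX hearts, against 5.92, 6.36 and 6.11 in PBS hearts. The gap between the groups was small and PBS 9 was the highest (difference -0.37, 95% interval -0.63 to -0.11, limma adjusted p = 0.113). Ccl4, an inflammatory ligand of macrophages and T cells, had 3.45, 3.55 and 3.42 in ETX hearts, against 4.06, 3.79 and 3.68 in PBS hearts. Its ETX values lay at the floor, so its difference of -0.37 (limma adjusted p = 0.0903) is that of a dim gene. Ccl17, a ligand of Ccr4 that dendritic cells make, had 3.77 to 4.02 in ETX hearts, the highest in ETX 7, against 4.25, 4.67 and 4.04 in PBS hearts. ETX 7 and PBS 12 almost met, and the difference was -0.39 (limma adjusted p = 0.190).

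Ccl9 and Ccl6 are related ligands of Ccr1 known from rodents and made by myeloid cells. Ccl9 had 6.63, 5.98 and 6.58 in ETX hearts, against 6.86, 8.15 and 7.05 in PBS hearts. Ccl6 had 5.95, 5.58 and 5.88 in ETX hearts, against 5.91, 7.16 and 6.10 in PBS hearts. In both genes PBS 9 stood far above the other hearts and PBS 12 was above all ETX hearts by less. PBS 3 exceeded all ETX hearts in Ccl9 and lay among them in Ccl6. The differences were -0.96 (95% interval -1.70 to -0.21, limma adjusted p = 0.140) for Ccl9 and -0.59 (-1.26 to 0.09, limma adjusted p = 0.290) for Ccl6, and against PBS 12 alone they were -0.65 and -0.29. Without PBS 9 the Ccl9 difference was -0.56 and that of Ccl6 -0.20.

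Cxcl14, a ligand that many epithelia and fibroblasts make without stimulation, had 4.54, 4.68 and 5.03 in ETX hearts, against 5.53, 6.67 and 5.11 in PBS hearts. PBS 9 was again the highest, while PBS 12 was only just above ETX 10. The group difference was -1.02 (95% interval -1.82 to -0.22, limma adjusted p = 0.143), and -0.36 against PBS 12 alone.

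**Figure D3:**
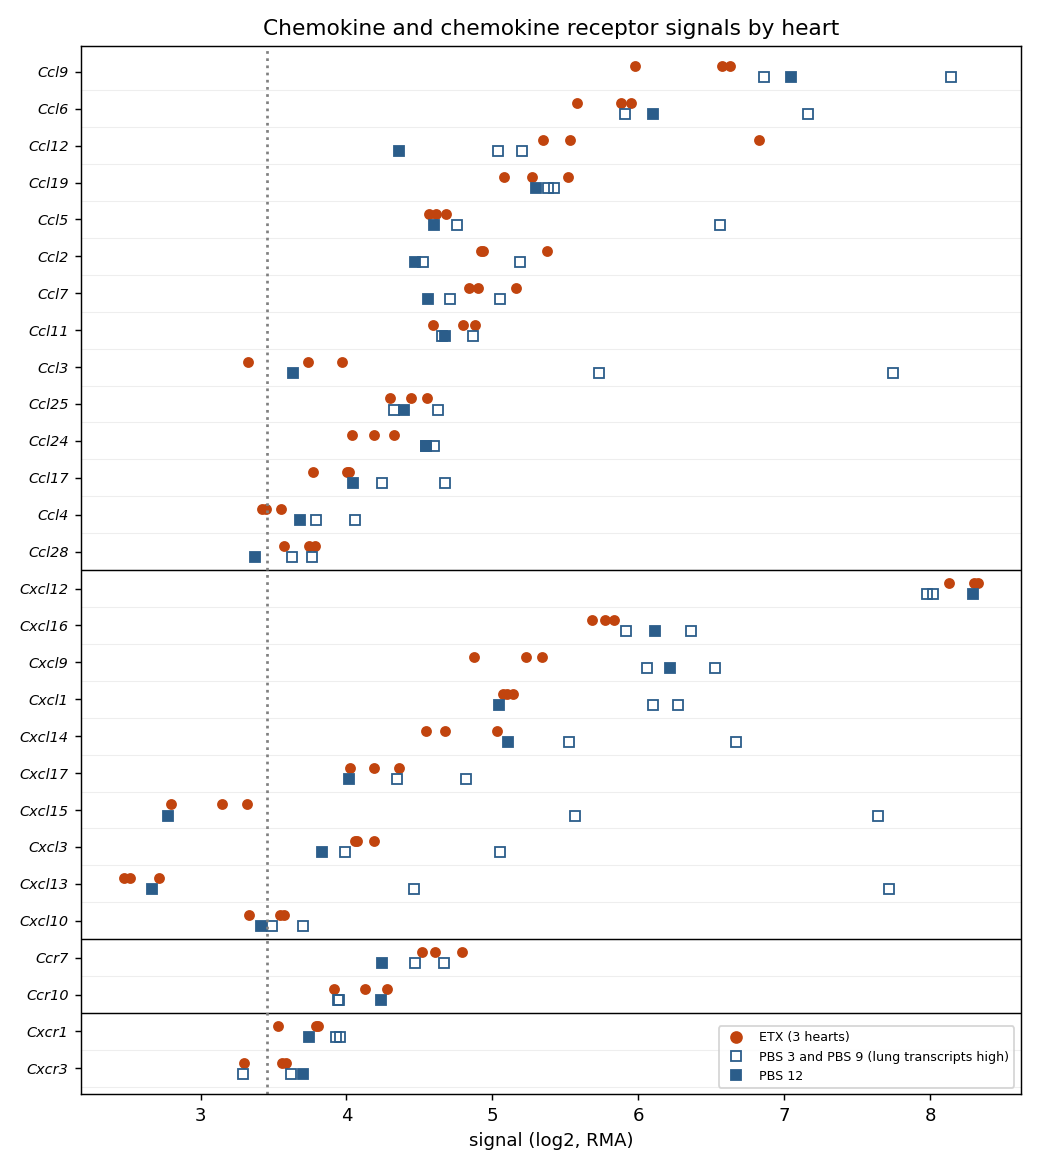
Log2 signal in each heart of the 28 chemokine and receptor genes at or above the brightness floor, grouped by role (CC ligands, CXC ligands, CC receptors, CXC receptors from the top), with ETX hearts as orange circles, PBS 3 and 9 as open blue squares and PBS 12 as a filled blue square; the dotted line is the brightness floor of 3.45. Open squares lie far above the rest for Cxcl15, Cxcl13 and Ccl3, whereas all 3 PBS hearts lie above the ETX hearts for Cxcl9.

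Cxcl15, Cxcl13, Ccl3, Cxcl1 and Cxcl2 were high in PBS 3 and PBS 9, the hearts with lung transcripts, and low in PBS 12. Cxcl15, a neutrophil attractant known in mouse as a product of lung epithelium, had 2.80, 3.15 and 3.32 in ETX hearts, against 5.57, 7.64 and 2.78 in PBS hearts. PBS 3 and PBS 9 were far above every ETX heart and PBS 12 was below all of them. Cxcl13, which organises B cell follicles through Cxcr5, had 2.72, 2.52 and 2.48 in ETX hearts, against 4.46, 7.72 and 2.67 in PBS hearts. For Cxcl13 PBS 12 lay within the ETX range. The group differences were -2.24 for Cxcl15 and -2.38 for Cxcl13. They are descriptions with no test and no fold, because both genes reached the brightness floor only through PBS 3 and PBS 9 and their ETX means lay below it.

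Ccl3, a macrophage product that acts on Ccr1, had 3.33, 3.74 and 3.97 in ETX hearts, against 5.73, 7.75 and 3.63 in PBS hearts. Its difference was -2.03 (95% interval -3.98 to -0.08, limma adjusted p = 0.213), and PBS 12 lay among the ETX hearts. Cxcl1, a neutrophil attractant, had 5.14, 5.10 and 5.07 in ETX hearts, against 6.10, 6.27 and 5.04 in PBS hearts. The 3 ETX hearts and PBS 12 lay within 0.10 of each other, about 1 log2 unit below PBS 3 and PBS 9 (group difference -0.70, limma adjusted p = 0.192). Cxcl2, its neighbour with the same role, lay below the floor in mean, with 2.71, 2.15 and 2.51 in ETX hearts and 3.58, 3.98 and 2.33 in PBS hearts.

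These 5 genes were at least 1 log2 unit higher in each of PBS 3 and PBS 9 than in PBS 12, which made 5 of 46 (10.9%), where 39 of all 19938 genes, or 0.196%, showed that step. Without PBS 12, when both remaining PBS hearts carried lung transcripts, Cxcl1 (-1.08, limma adjusted p = 0.00361) and Ccl3 (-3.06, limma adjusted p = 0.0445) passed the threshold. Both genes had been grouped for high values in those PBS hearts, so these calls are no test of ETX. Against PBS 12 alone the differences of Cxcl1 and Ccl3 were 0.06 and 0.04. The summed signal of 9 neutrophil markers was 212 to 286 in ETX hearts, against 550, 1137 and 149 in PBS 3, 9 and 12, with no call. That sum rests mainly on S100a8, S100a9 and Retnlg, and the markers did not all follow it. S100a9 had 6.32, 5.81 and 6.36 in ETX hearts, against 7.71, 8.67 and 5.32 in PBS hearts. Mpo, near the floor, had 3.70, 3.94 and 3.76 in ETX hearts, against 3.69 and 3.73 in PBS 9 and 12, with PBS 3 the highest of the 6. Elane, below the floor, had 3.15 in PBS 9, lower than in any ETX heart. B cell markers (5 measured, no call, Cd79b at -0.32 and Cd22 at -0.20 with the smallest p) summed to 69.6 to 73.7 in ETX hearts and 73.8 to 88.7 in PBS hearts. The part of lung tissue and of these cells in the values of PBS 3 and PBS 9 was not tested.

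Ccl5, a product of T cells, platelets and macrophages, differed in a single heart. It had 4.57, 4.68 and 4.62 in ETX hearts, against 4.76, 6.56 and 4.60 in PBS hearts. Only PBS 9 stood out, and without it the difference was -0.05 in place of -0.68 (limma adjusted p = 0.418 over all hearts). PBS 9 held the highest value of the 6 hearts in 15 of the 28 genes, against 16.2% of all genes tested.

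**Figure D4:**
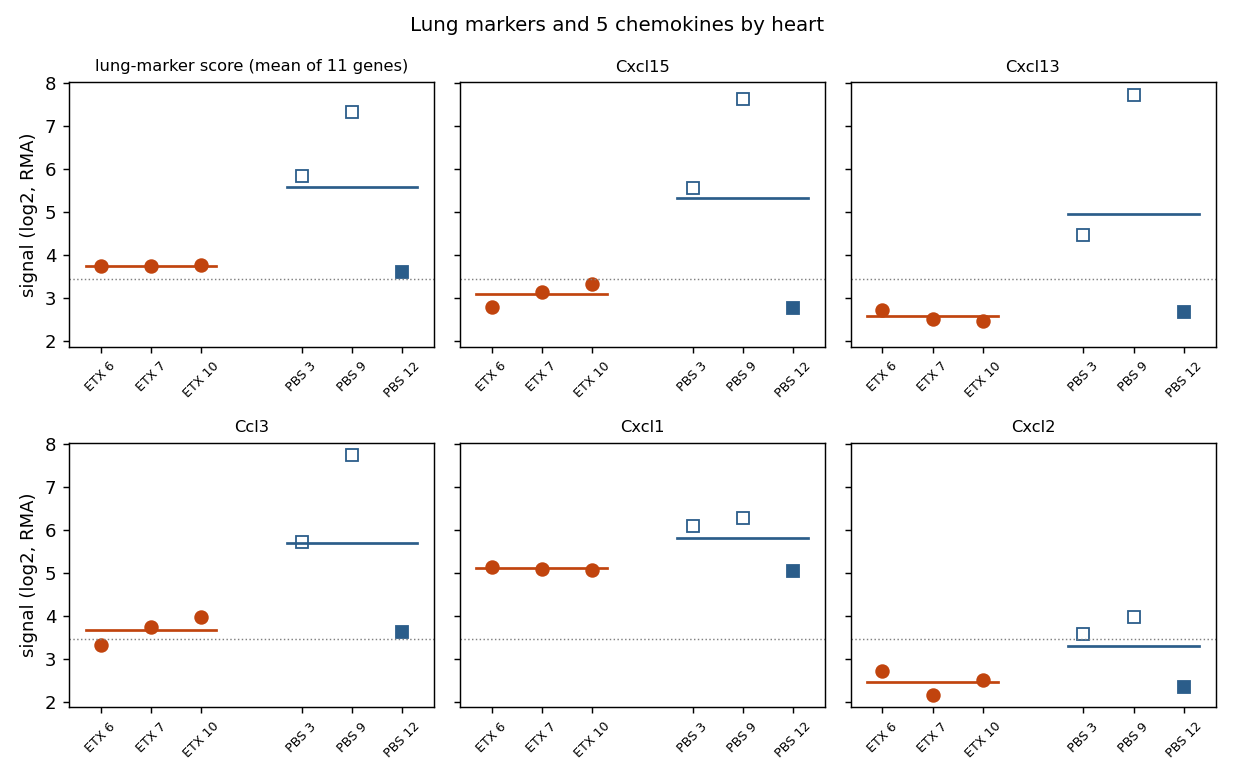
Mean log2 signal of 11 lung epithelium markers in each heart (first panel) and log2 signal of Cxcl15, Cxcl13, Ccl3, Cxcl1 and Cxcl2, with ETX hearts as orange circles, PBS 3 and 9 as open blue squares, PBS 12 as a filled blue square, lines at the group means and a dotted line at the floor of 3.45. In the lung panel ETX hearts lie at 3.74 to 3.78, against 5.84, 7.33 and 3.60 in PBS 3, 9 and 12, and in the gene panels the open squares also lie above the other hearts.

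Ccl12, a mouse ligand of Ccr2 that attracts monocytes, was the single gene whose ETX hearts all lay above the PBS hearts, 1 of 28 (3.57%) beside 11.6% of all genes tested. It had 5.35, 5.53 and 6.83 in ETX hearts, against 5.20, 5.04 and 4.36 in PBS hearts. ETX 10 was far above the others and PBS 12 far below, while ETX 6 exceeded PBS 3 by little. The means were 5.90 ± 0.81 in ETX hearts and 4.87 ± 0.45 in PBS hearts (SD, n = 3 each), a difference of 1.03 (95% interval 0.16 to 1.90, limma adjusted p = 0.163). Without ETX 10 it was 0.57. Among interferon-induced genes, chosen after their values were seen, ETX 10 was also the highest for Iigp1, with 5.31, 5.14 and 7.02 in ETX hearts against 5.83, 5.88 and 5.74 in PBS hearts, and for Cd274, with 5.46, 5.46 and 6.45 in ETX hearts against 5.92, 6.19 and 5.61 in PBS hearts. Cxcl9 and Cxcl10 did not share this pattern. In ETX 10 Cxcl9 (5.34) lay below every PBS heart, and Cxcl10 (3.54) lay below ETX 7 (3.57) and PBS 9 (3.70). An interferon response in ETX 10 was not tested.

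The neighbours of Ccl12 are Ccl2, Ccl7 and Ccl11, attractants of monocytes and eosinophils. Ccl2 had 4.92, 4.94 and 5.37 in ETX hearts, against 4.53, 5.19 and 4.47 in PBS hearts, with overlap through PBS 9 (difference 0.35, 95% interval -0.11 to 0.81, limma adjusted p = 0.355). Ccl7 had 5.16, 4.84 and 4.90 in ETX hearts and 4.71, 5.05 and 4.56 in PBS hearts, also overlapping (0.20, limma adjusted p = 0.447). Ccl11 differed by 0.03. All 4 tested genes of this stretch of chromosome 11 were above 0, with a median of 0.27, and none passed the threshold.

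In RefSeq gene order a second stretch of chromosome 11 holds Ccl5, Ccl9, Ccl6, Ccl3 and Ccl4. All 5 were tested and all 5 differences were below 0, with a median of -0.68. PBS 9 exceeded PBS 12 by 1.96, 1.10, 1.06 and 4.11 in the first 4 and by 0.12 in Ccl4. On chromosome 5 the 3 tested genes of the stretch with Cxcl5, Cxcl3, Cxcl15, Cxcl1 and Cxcl2 were below 0 (median -0.70), as were the 3 tested of the stretch with Cxcl9, Cxcl10, Cxcl11 and Cxcl13 (median -1.12). Both medians are descriptions, since they include Cxcl15 or Cxcl13, which reached the floor only through PBS 3 and PBS 9. Genes within a stretch share ancestry and were measured in the same hearts, so they are not independent points. PBS 9 exceeded PBS 12 by 4.86 in Cxcl15 and 5.05 in Cxcl13 but by only 0.31 in Cxcl9.

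**Figure D5:**
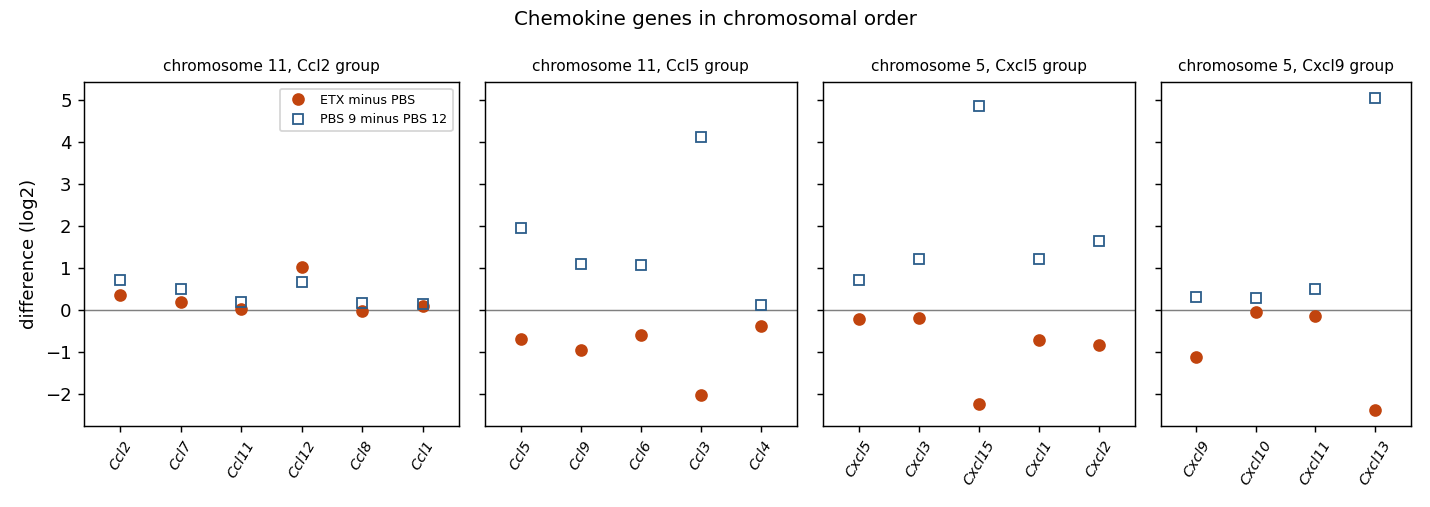
Difference in log2 signal along 4 stretches of neighbouring chemokine genes in chromosomal order (order only, not distance), with ETX minus PBS in orange and PBS 9 minus PBS 12 as open squares. The stretch with Ccl2 and Ccl12 lies above 0 in its 4 tested genes, the other 3 stretches lie below 0 in theirs, and the open squares are highest at Cxcl13 (5.05), Cxcl15 (4.86) and Ccl3 (4.11).

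Cxcl12, which stromal and endothelial cells make constantly and which also binds the scavenger Ackr3, did not pass the threshold. It had 8.33, 8.13 and 8.30 in ETX hearts, against 8.02, 7.98 and 8.30 in PBS hearts, a difference of 0.16 (95% interval -0.08 to 0.39, limma adjusted p = 0.413). ETX 6, ETX 10 and PBS 12 were almost equal. Of 7 blood endothelium markers 3 fell (Cdh5, Tie1 and Esam), beside 2.43% of all genes tested. All 7 were below 0, with a median of -0.34. Tie1 kept its call in 4 of the 6 fits that left out a heart, Cdh5 in 1 and Esam in 0. Of 6 fibroblast markers 1 fell, Pdgfra (-0.50, limma adjusted p = 0.0302), which kept its call in 1 of those 6 fits, without PBS 12. Ccl19, a ligand of Ccr7, had 5.52, 5.08 and 5.27 in ETX hearts and 5.42, 5.38 and 5.30 in PBS hearts (-0.08, limma adjusted p = 0.737). Its value is uncertain, since the array carries 5 clusters for near-identical copies. The ligands Cxcl3 (-0.18), Cxcl17 (-0.20), Ccl25 (-0.02) and Ccl28 (0.11) also did not pass the threshold.

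The other ligand of Ccr7, Ccl21, lies only on clusters that name several genes and so was outside the 46 genes. It was chosen after its values were seen. The 4 clusters hold identical values and carry 7 symbols, including Ccl21a, Ccl21b and Ccl21c, so copies cannot be told apart. They had 6.69, 7.12 and 7.19 in ETX hearts, against 8.72, 7.99 and 8.57 in PBS hearts. Every ETX heart lay below every PBS heart. Of the hearts with lung transcripts, PBS 9 was the lowest PBS heart and PBS 3 the highest. In a fit over all 35556 clusters, of which limma called 0.827%, the difference was -1.42 (95% interval -1.94 to -0.91), 2.69-fold lower, at an adjusted p of 0.0483. The call was lost in 5 of the 6 fits that left out a heart, with limma adjusted p up to 0.157, and held without PBS 9 at 0.0346. With the lung-marker score as a covariate the call was also lost (-1.68, limma adjusted p = 0.125), as it was with the atrial-marker score (-1.50, limma adjusted p = 0.162). Against PBS 12 the difference was -1.57, which rests on that single PBS heart.

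Ccl21 is known from lymphatic endothelium, and the 4 markers of that cell type were also below 0, with a median of -0.26. None passed the threshold; Flt4 was at -0.30 (limma adjusted p = 0.0586) and Prox1 at -0.18 (0.212). Their summed signal was 507 to 567 in ETX hearts and 568 to 749 in PBS hearts, so the ranges almost met. Lyve1, which weighs heavily in the sum, overlapped between groups, with 8.04, 7.55 and 7.78 in ETX hearts, against 7.65, 8.59 and 7.99 in PBS hearts. The part of lymphatic endothelium in the Ccl21 difference was not tested.

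Receptors were dim. Of 14 receptor genes 10 lay below the floor and 4 were tested, none of which passed the threshold. Ccr7, which guides dendritic cells and T cells to lymph nodes, had 4.61, 4.52 and 4.79 in ETX hearts and 4.47, 4.67 and 4.25 in PBS hearts (0.18, 95% interval -0.09 to 0.45, limma adjusted p = 0.424). Ccr10, a receptor for Ccl28, had 4.12, 4.28 and 3.91 in ETX hearts and 3.95, 3.94 and 4.23 in PBS hearts. Cxcr1, a neutrophil receptor, had 3.53, 3.79 and 3.81 in ETX hearts and 3.96, 3.93 and 3.74 in PBS hearts. The groups overlapped in all of these.

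Below the floor, Ccr2, the monocyte receptor for Ccl2 and Ccl12, had 2.82, 2.70 and 2.68 in ETX hearts and 2.81, 3.12 and 2.79 in PBS hearts. Ccr1, which binds Ccl3 and Ccl9, had 3.43, 3.29 and 3.52 in ETX hearts and 3.18, 3.74 and 3.37 in PBS hearts. Cxcr5, the receptor for Cxcl13, had 2.58, 2.69 and 2.62 in ETX hearts, all below the 2.72, 2.75 and 2.94 of PBS hearts. At such levels no change in either direction can be read. Ccr6 (2.77 to 2.98 in ETX hearts, 2.88 to 3.04 in PBS hearts), Ccr1l1 (2.94 to 3.22 in ETX hearts, 2.96 to 3.22 in PBS hearts) and Cxcr6 (2.50 to 2.59 in ETX hearts, 2.52 to 2.68 in PBS hearts) were equally dim. The others below it were Ccl1, Ccl8, Ccl20, Ccl22, Ccl26, Cxcl2, Cxcl5, Cxcl11, Ccr3, Ccr4, Ccr8 and Ccr9. Over all 18 genes below the floor the mean signal was 2.39 to 3.42 and the difference -0.84 to 0.13, with a median of -0.03.

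Among 10 tested genes for other chemokines and binding receptors, Ackr2 rose and none fell, beside 1.14% of all genes tested called higher and 2.43% lower. Ackr2, an atypical receptor that takes up and degrades inflammatory CC chemokines, had 6.23, 6.20 and 5.98 in ETX hearts, against 5.37, 5.66 and 5.58 in PBS hearts. All ETX hearts lay above all PBS hearts, PBS 12 included (difference 0.60, 1.51-fold, limma adjusted p = 0.0277). The call held without ETX 10 and without PBS 9 and was lost in the other 4 fits that left out a heart, with limma adjusted p up to 0.106. Ppbp, the platelet chemokine, had 9.11, 7.30 and 7.50 in ETX hearts, against 5.67, 5.48 and 6.54 in PBS hearts, without passing the threshold (2.07, limma adjusted p = 0.0542).

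Among 21 tested genes listed for chemokine receptor signalling, 2 fell and none rose. Whether they act downstream of chemokine receptors in these hearts was not tested. For this list and those that follow, limma called 2.43% of all genes tested lower and 1.14% higher. Rgs2, which shortens G protein signals, had 6.89, 6.67 and 6.64 in ETX hearts, against 7.59, 7.56 and 7.75 in PBS hearts (-0.90, limma adjusted p = 0.0060). Plcb3, a phospholipase activated by G proteins, fell by 0.41 on the log2 scale (limma adjusted p = 0.0462). Of 16 tested genes of NF-kappa-B and its upstream cytokines, 14 were below 0. Nfkbia, the feedback inhibitor of NF-kappa-B, fell 1.76-fold (limma adjusted p = 0.0251). The list for presentation and cleavage of chemokines had 16 tested genes, of which 3 fell. They were the peptidase Mme (2.52-fold, limma adjusted p = 0.000555), the matrix protease Mmp2 (1.50-fold, 0.0127) and Hspg2, the heparan sulfate proteoglycan perlecan (1.27-fold, 0.0302). Action of these 3 on chemokines was not tested. When 1 heart was left out, Rgs2 and Mme passed in 6 of 6 fits, Mmp2 in 5 (lost without PBS 3), Nfkbia in 2 (those without ETX 10 and without PBS 12), and Plcb3 and Hspg2 in 0.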

How the data were processed

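The authors made the deposited log2 values with RMA in Affymetrix Expression Console, per the submitters' processing notes; no version is stated there. RMA brings all arrays to 1 distribution and compresses differences of dim genes. The files give no detection calls. The array annotation's build is not given in the sources used here. Of 35556 clusters 21789 carried 1 gene symbol and 1621 several. All 46 genes were found by identifier in the RefSeq table (GRCm38.p6), and 44 had a single cluster.

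The 3 ETX and 3 PBS arrays entered a linear model in limma 3.58.1 under R 4.3.3 (lmFit, eBayes, two-sided, Benjamini-Hochberg adjustment). Signals of different probe sets were not ranked against each other. On simulated data at this size the test recovered 97% of 1.5-fold and 100% of 2-fold changes, with 100 genes of each, and also called 14 unchanged genes. The simulated noise was normal, independent between hearts and genes, and had the variance that limma fitted for each gene. It held no differences shared by a heart, such as the lung transcripts of PBS 3 and PBS 9. It therefore sets no limit on changes missed here, where Ccl3 (4.08-fold) and Ccl12 (2.05-fold) were not called. The precision is limited by 3 arrays a group.

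Genes given by heart were those past the threshold, the 12 others with the smallest unadjusted p, the 5 brightest of each role, and Cxcl15, Cxcl9, Cxcl10 and Cxcl11; some others were added as receptors or neighbours of these. Genes of the other lists were named if called, otherwise by the 2 with the smallest p, for the lists set beside a result; further markers named there were chosen after their values were seen. The members, lists and tests were chosen with earlier results of these data known. The Ccl21 clusters and the alternatives for genes outside the chemokine families were chosen after seeing the data. Alternatives changed the brightness filter, scaling, variance model, weights, covariates and hearts included.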

Additional observations from a re-analysis of the deposited data

How the results depend on the processing

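The count of genes called by limma, 533 over all hearts, was 909 with the brightness filter at the median, 957 with a trended robust variance, 1259 at a threshold of 0.1, 82 with the lung-marker score and 89 with the atrial-marker score as a covariate, 19 with PBS 12 as the only PBS heart (assumed to vary like the others), and 94 to 241 when 1 heart was left out. Chemokine genes called lower, 1 over all hearts, were 2 (Cxcl9 and Ccl24) with median centring, quantile normalization, trended robust variance or array weights, 3 at a threshold of 0.1, 0 with the lung-marker score as a covariate and 0 with PBS 12 alone, and 1 to 4 when 1 heart was left out, with 4 (Cxcl9, Cxcl1, Ccl3 and Cxcl15) without PBS 12; Cxcl15 passed the filter only through PBS 3 and PBS 9, so its call there is no evidence of a change. Cxcl1 and Ccl3 were high in PBS 3 and PBS 9 but not in PBS 12, so their calls without PBS 12 are no test of ETX. No chemokine gene was called higher in any setting. For Cxcl9 the limma adjusted p ran from 0.00415 to 0.0894, the difference being -0.99 with the lung-marker score. The median difference of tested chemokine genes, -0.19, was -0.59 with the filter at the median, -0.027 with the lung-marker score, 0.0090 with PBS 12 alone, and -0.38 to -0.075 when 1 heart was left out. Signs turned, with no call, for Cxcl1 (0.062), Ccl3 (0.043), Cxcl15 (0.31), Ccl5 (0.024), Cxcl12 (-0.043), Ccr10 (-0.13) and Cxcl10 (0.068) with PBS 12 alone, and for Cxcl13 (0.025), Cxcl15 (0.15), Ccl5 (0.22), Cxcl12 (-0.0061), Ccr10 (-0.090) and Cxcl10 (0.083) with the lung-marker score. When 1 heart was left out, values ran from -0.022 (without ETX 7) to 0.16 (without PBS 12) for Ccr10, from -0.18 (without PBS 3) to 0.032 (without ETX 10) for Cxcr3 and from -0.11 (without PBS 12) to 0.032 (without PBS 9) for Cxcl10, and Ccl19 was at most 0.031 (without ETX 7). Fewer PBS hearts leave less power; otherwise the cause was not tested. With 3 arrays a group and no detection calls, genes near the floor give no reliable change. No paired analysis was possible because the groups share no replicate numbers.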
